A study of Mus musculus with 10 samples.

Results

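Binding of the glucocorticoid receptor (GR) was set against binding of C/EBPβ in 3T3-L1 cells 6 h after adipocyte differentiation was induced. Each side was 1 chromatin immunoprecipitation sequencing library with 1 deposited peak list, 2 of the 10 samples of the series. The GR list held 4007 peaks and the C/EBPβ list 20746, together 24753 of the 49015 intervals in the 6 lists. 3T3-L1 is a mouse fibroblast line that can be turned into adipocytes in culture. The labels name no genetic change and no added agent, give both libraries the same stage, and do not spell out the inducing mixture. The GR library was made with a pair of antibodies and the C/EBPβ library with a single one. For comparison the text uses C/EBPβ in undifferentiated cells (0 h, 10359 peaks) and the lists of acetylated histone H3 lysine 9 (H3K9ac) from 0, 24 and 240 h, in which the authors kept regions away from transcription starts with more signal at that time than at another.

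GR is a nuclear receptor that enters the nucleus when it binds a glucocorticoid hormone and then occupies DNA either at its own palindromic element or through other factors. C/EBPβ is a basic leucine zipper factor induced within hours of the adipogenic stimulus. It acts upstream of C/EBPα and PPARγ, the factors that drive the later adipocyte programme. Glucocorticoid is a usual component of adipogenic mixtures, so both factors can be bound in the same cells early in differentiation.

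A GR peak and a C/EBPβ peak were called a pair when they shared at least 1 bp. Of the GR peaks, 2668 (66.6%, 95% interval 65.1 to 68.0%) had a C/EBPβ partner, and of the C/EBPβ peaks, 2706 (13.0%, 12.6 to 13.5%) had a GR partner. The intervals here and below cover counting error only, treat peaks as independent and say nothing about the spread between cultures, because neither library has a replicate. The pairing was nearly one to one. There were 2732 pairs, and in 2556 of them (93.6%) both peaks had a single partner. No GR peak met more than 2 C/EBPβ peaks, and 64 met 2. A single C/EBPβ peak met 3 GR peaks, and it is named here although it was picked out after its values were seen. It lay on chromosome 8 at 11382467 to 11383263, with a C/EBPβ height of 28, and the GR heights along it were 64, 13 and 22. All positions are on the mouse build mm8, as deposited. Peak height is the authors' whole-number read signal at a peak, and no listed peak of either library was below 12.

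At shared sites both factors centred on nearly the same DNA. The lists give no summits, so the midpoint of each interval stood for the site. The median distance between the GR and the C/EBPβ midpoint was 52 bp (50 to 53.5 bp), with quartiles of 22.5 and 100 bp. In 1325 of 2732 pairs (48.5%, 46.6 to 50.4%) the midpoints lay within 50 bp, and in 75.2% within 100 bp. An offset over 200 bp occurred in 178 pairs (6.52%), and there the wider interval of the pair had a median width of 726 bp, against 477 bp in the other pairs. The GR midpoint lay inside the C/EBPβ interval in 94.7% of pairs. In 35.3% of pairs the whole GR interval lay inside the C/EBPβ interval, and in 18.2% the reverse held. Any overlap caps the offset at the mean of both widths, and the median offset was 12.3% of that cap.

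Offsets between libraries of the same factor gave a scale for this. C/EBPβ peaks of 0 h that overlapped a C/EBPβ peak of 6 h, 7385 of 10359 (71.3%), formed 7455 pairs with a median offset of 33.5 bp (32.5 to 34.5 bp). Midpoints within 50 bp made up 64.2% of these pairs, so GR with C/EBPβ was 15.7 percentage points lower (interval of the difference -17.8 to -13.5). C/EBPβ intervals of 0 h were narrower, with a median of 273 bp in these pairs against 395 bp for GR in its pairs. Measured against the cap that the widths set, the medians were 12.3% for GR and 11.3% for C/EBPβ across time. Pairs within 10% of the cap made up 42.2% and 45.1%, a difference of -2.87 points (-5.03 to -0.691). Among pairs with both intervals at most 300 bp wide, 224 with GR and 2592 of C/EBPβ across time, the medians were 22.3 and 18.5 bp, and 81.3% and 92.1% lay within 50 bp, a difference of -10.8 points (-16.5 to -6.14). The offset of GR from C/EBPβ was therefore larger than that of C/EBPβ from itself on each of these 3 scales. Differences were smaller on the scales that take width into account. The limit of 300 bp did not match widths below it, and heights were not matched on any scale. The part of either in the differences was not tested.

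**Figure D1:**
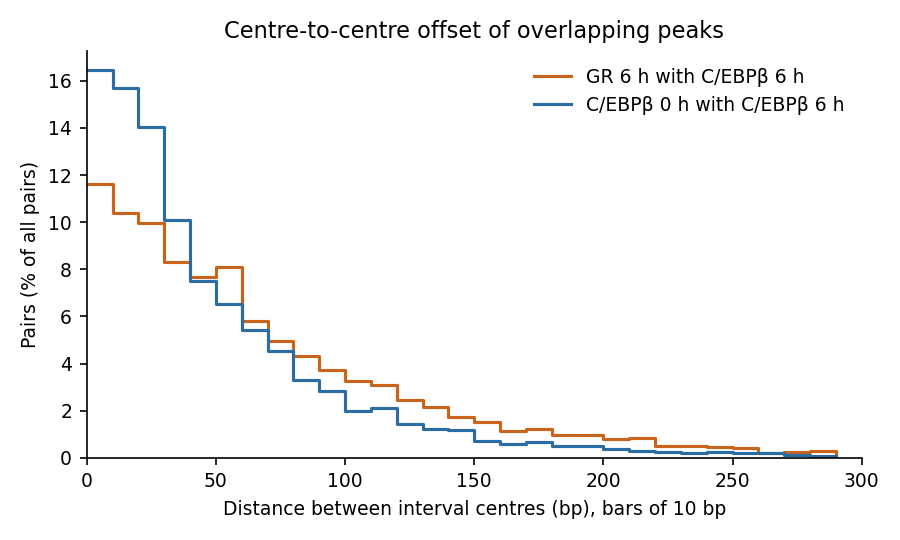
Distance between the midpoints of overlapping peaks (x axis, bp, in bars of 10 bp) as a percentage of all pairs (y axis), for GR with C/EBPβ at 6 h and for C/EBPβ at 0 h with C/EBPβ at 6 h, cut at 300 bp. Both curves are highest near 0 and decline with distance apart from small rises between neighbouring bars, and the GR curve has fewer pairs within 50 bp (48.5% against 64.2%).

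The offset went with GR width and not, within counting error, with GR height. Midpoints lay within 50 bp in 61.4% (56.8 to 65.8%) of pairs with the narrowest GR peaks and in 40.5% (37.4 to 43.7%) with the widest, a difference of -20.9 points (-26.3 to -15.4). Wider intervals can overlap at larger offsets by construction, and the part of this in the difference was not tested. By C/EBPβ width the share was 48.4%, 61.8%, 57.4% and 41.9% from the narrowest to the widest class. The widest differed from the narrowest by -6.51 points (-14.5 to 1.47). With the whole GR list cut by height into 4 classes of equal size, the median offset was 52 bp in the lowest class, 51.3 and 54 bp in the classes between, and 50.5 bp in the highest. The share within 50 bp differed by 1.19 points (-4.05 to 6.41) between the highest and the lowest GR class. Against C/EBPβ height it rose from 42.1% in the lowest class to 50.7% in the highest, a difference of 8.56 points (2.18 to 14.7). Pairs whose C/EBPβ peak was already listed at 0 h and pairs whose C/EBPβ peak was new had almost equal medians, 51.5 and 52 bp, and their shares within 50 bp differed by 0.773 points (-3.06 to 4.61).

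The heights of the factors at shared sites had no common order. Over the 2732 pairs Spearman's rank correlation between GR height and C/EBPβ height was -0.04, given as a description of 1 library a side. Between C/EBPβ at 0 h and at 6 h, measured the same way over 7455 pairs, it was 0.39. The authors' fold enrichment (a ratio whose denominator the sources used here do not explain) gave -0.02 and 0.36. GR and C/EBPβ heights fell on the same side of their medians over pairs in 46.4% of pairs, against 64.3% for C/EBPβ across time, a difference of -17.8 points (-20.0 to -15.7). From the lowest to the highest class of GR height, the median height of the C/EBPβ partner was 29, 29, 28 and 26. From the lowest to the highest class of C/EBPβ height at 0 h, the partner at 6 h had medians of 19, 21, 23 and 33.

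**Figure D2:**
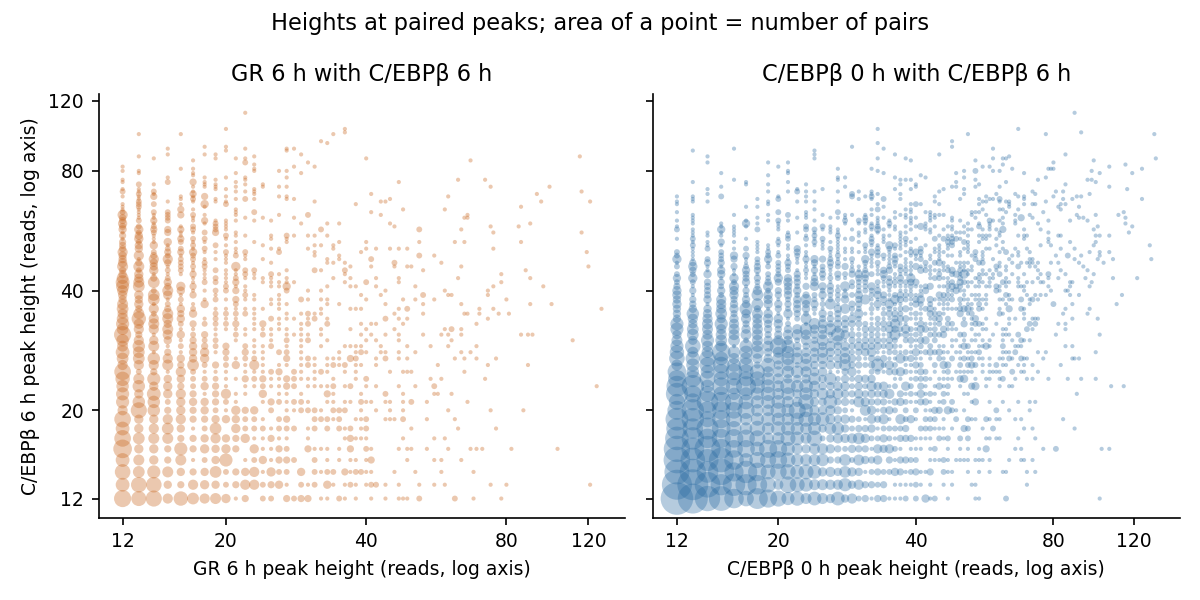
C/EBPβ height at 6 h (y axis, reads, log axis) against GR height at 6 h (left) or C/EBPβ height at 0 h (right, x axes, reads, log axes) at paired peaks, with the area of a point giving the number of pairs. Points on the left spread over all combinations (rank correlation of -0.04 over 2732 pairs), while those on the right lean along the diagonal (rank correlation of 0.39 over 7455 pairs).

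The pairs were a mixture in this respect. Where the C/EBPβ peak overlapped one listed at 0 h, called pre-bound here (1068 pairs), the C/EBPβ median height was 42 and the GR median 16. Where it was new at 6 h (1664 pairs), the C/EBPβ median was 22 and the GR median 18. The pre-bound sites thus carried the higher C/EBPβ and slightly lower GR. Within these sets the rank correlation was 0.14 at pre-bound and 0.02 at new sites, both above the pooled value. The share of paired GR peaks whose highest C/EBPβ partner was listed at 0 h fell with GR height, from 49.1% (45.3 to 53.0%) in the lowest class through 41.2% and 40.5% to 28.2% (25.1 to 31.6%) in the highest. The highest and lowest classes differed by -20.9 points (-25.9 to -15.8). For scale, 7396 of all 20746 C/EBPβ 6 h peaks (35.7%) overlapped one listed at 0 h. That share lay above the share of the highest GR class and below those of the other classes. Paired C/EBPβ peaks were higher than unpaired ones, and the part of C/EBPβ height in this comparison was not tested. GR peaks above and not above their list's median height of 16 differed by -11.2 points (-14.9 to -7.48), by -11.3 (-15.6 to -6.92) where the C/EBPβ partner was above its own list's median of 18, and by -4.65 (-9.01 to -0.625) where it was not.

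At the very top of both lists sharing was more complete. All 20 of the highest GR peaks and all 20 of the highest C/EBPβ peaks were paired, with heights of at least 89 and 88. Among the 100 highest, 90 GR peaks (82.6 to 94.5%) and 73 C/EBPβ peaks (63.6 to 80.7%) were paired, against 66.6% and 13.0% of the whole lists. C/EBPβ partners of the 20 highest GR peaks had a median percentile of 93.6 within the C/EBPβ list, where all pairs had 79.3. GR partners of the 20 highest C/EBPβ peaks had a median percentile of 71.4 within the GR list, where all pairs had 52.7. At the 400 highest GR peaks the median C/EBPβ percentile was 79.3, that of all pairs. At the 400 highest C/EBPβ peaks the median GR percentile was 57.5 (52.7 to 61.7).

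The sites that were strong for both factors were chosen by the lower of their percentiles. The site on chromosome 5 at 66851588 to 66852056 had a GR height of 115 and a C/EBPβ height of 87, with midpoints 38 bp apart. C/EBPβ was not listed there at 0 h, and an H3K9ac 24 h region lay within 1 kb. A second site on chromosome 5, at 91828907 to 91829540, had heights of 99 and 73, and one on chromosome 19 at 40485289 to 40485918 had 116 and 71. A site on chromosome 15 at 61437689 to 61438609 had 93 and 70, and an H3K9ac 24 h region was near. The fifth, on chromosome 8 at 13620277 to 13621139, had a GR height of 121 over a pair of C/EBPβ peaks of heights 13 and 67. At these last 4 sites the higher C/EBPβ peak was already listed at 0 h. Of all paired GR peaks with both heights above their medians, 450 of 1019 (44.2%) had C/EBPβ listed at 0 h. C/EBPβ height took part in choosing the named sites and itself went with listing at 0 h, so they add no support to the shares above.

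The most unequal pairs serve as examples. Their height chose them, and C/EBPβ height itself went with listing at 0 h, so they add no support to the shares above. Where GR was high and C/EBPβ at the listed minimum of 12, none of the 5 most unequal pairs had C/EBPβ at 0 h, against 18 of 357 (5.04%) of all paired GR peaks with GR above and C/EBPβ not above its median. The most unequal (chromosome 15, 103196176 to 103196546) had a GR height of 78 and midpoints 39 bp apart. The next (chromosome 6, 31000879 to 31001366) had a GR height of 68, and another (chromosome 1, 138429885 to 138430188) had 52. A GR peak of height 62 on chromosome 7 at 104284213 to 104284760 made up 2 of the 5 pairs, because it overlapped 2 C/EBPβ peaks of height 12. Where C/EBPβ was high and GR at its minimum of 12, all 5 C/EBPβ peaks were listed at 0 h, against 556 of 1003 (55.4%) with C/EBPβ above and GR not above its median. Their C/EBPβ heights were 72 to 82, the highest on chromosome 2 at 128159012 to 128159323.

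For GR, width went with sharing more than height did. The listed width is the length of the interval the caller drew. Listed height is a coarser scale of whole numbers. The lowest GR height class spans 12 to 13 and the next 13 to 16, with ties split by fold enrichment. The part of this coarse scale in the comparison was not tested. Paired GR peaks had a median width of 390 bp (383 to 399 bp) and unpaired ones 294 bp (286 to 301 bp), while median heights were 17 and 16 and median fold enrichment was 7.87 in both. Paired C/EBPβ peaks had a median width of 435 bp against 285 bp, and a median height of 28 against 17. By width class, 45.0% (42.0 to 48.1%) of the narrowest GR peaks, 61.6% and 71.6% of those between and 88.2% (86.1 to 90.1%) of the widest were paired. The widest class thus exceeded the narrowest by 43.2 points (39.4 to 46.8). By height class the corresponding excess was 7.86 points (3.78 to 11.9), and by fold enrichment it was 0.769 points (-3.24 to 4.78), with 69.6% and 70.3% in the outer classes and 63.6% and 62.9% between.

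The association with width held at every height. Within the 4 GR height classes the widest peaks exceeded the narrowest in paired share by 36.8 to 50.2 points, with all 4 intervals above 0. Within the 4 width classes the highest GR peaks differed from the lowest by -7.14 to 3.31 points, and all 4 intervals included 0. A wider interval can meet a partner more easily by construction. When a pair was instead required to have midpoints within 100 bp, the excess of the widest class was 24.5 points (20.2 to 28.7).

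**Figure D3:**
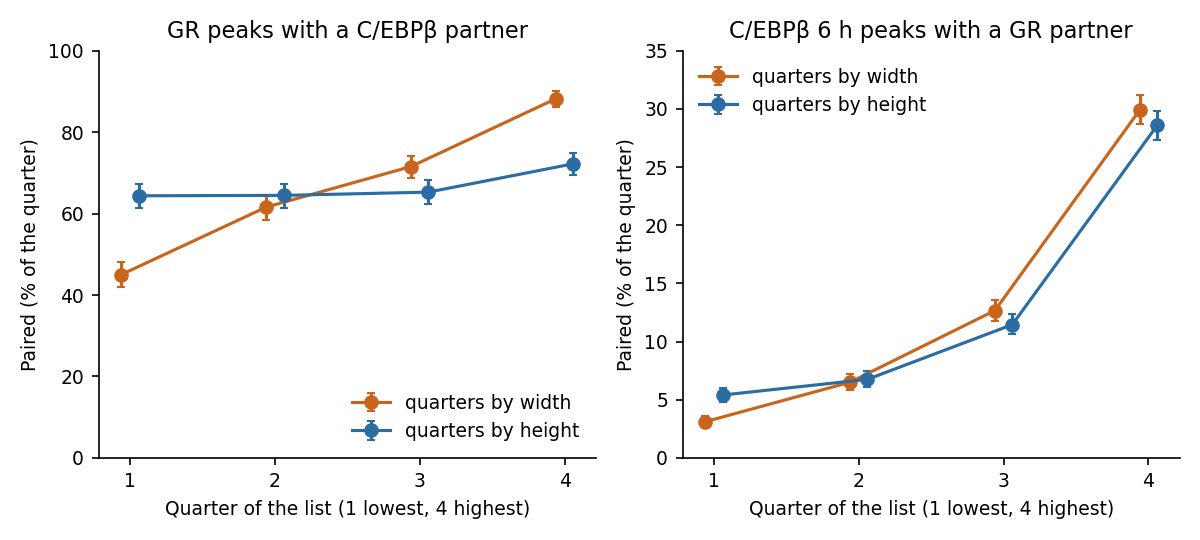
Percentage of GR peaks with a C/EBPβ partner (left) and of C/EBPβ 6 h peaks with a GR partner (right) in 4 classes of equal size by width or by height (x axes), with 95% Wilson intervals of counting error. On the left the share runs from 45.0% to 88.2% with width and from 64.4% to 72.2% with height, and on the right from 3.10% to 29.9% with width and from 5.40% to 28.6% with height.

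For C/EBPβ both measures went with sharing. Of the narrowest C/EBPβ peaks 161 of 5187 (3.10%, 2.67 to 3.61%) had a GR partner, and of the widest 1551 of 5186 (29.9%, 28.7 to 31.2%). Of the peaks in both the widest and the highest class, 1016 of 2322 (43.8%, 41.7 to 45.8%) had a GR partner, and of those in both the narrowest and the lowest, 50 of 1918 (2.61%, 1.98 to 3.42%). The highest peaks that were narrow stayed low, at 5.93% (3.98 to 8.74%). New C/EBPβ peaks were 404.5 bp wide with GR and 281 bp without. Pre-bound ones were 480.5 bp wide with GR and 294 bp without. Median heights with and without GR were 21.5 and 15 for new peaks and 42 and 22 for pre-bound ones. The part of height in these widths was not tested. Here too a wider interval can meet a partner more easily by construction. The widest class exceeded the narrowest by 26.8 points (25.5 to 28.1), and by 19.1 points (17.9 to 20.3) with midpoints required within 100 bp.

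Partners also resembled each other in width, although not in height. Across pairs the rank correlation between GR width and C/EBPβ width was 0.42, and 0.41 with both heights held fixed. C/EBPβ across time gave 0.39, close to its value for height. In 59.8% (58.0 to 61.6%) of pairs the C/EBPβ interval was the wider, and in 1092 of 2732 pairs GR was. Over all pairs the median of GR width minus C/EBPβ width was -39 bp. This order is the reverse of that over whole lists, where GR peaks had a median width of 354 bp and C/EBPβ peaks 300 bp. The median of C/EBPβ at pairs was 437.5 bp and that of GR 395 bp. Within each list, width had a rank correlation of 0.30 with height for GR and 0.40 for C/EBPβ.

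For the 1339 GR peaks without a partner (33.4% of the list), the median gap from edge to edge to the nearest C/EBPβ 6 h peak was 10.0 kb (8.78 to 11.0 kb), with quartiles of 2.91 and 31.3 kb. Of these peaks, 154 (11.5%, 9.90 to 13.3%) lay under 1 kb away, 669 of 1339 (47.3 to 52.6%) under 10 kb, and 83 (6.20%, 5.03 to 7.62%) at 100 kb or more. Counting paired peaks and those with a gap under 10 kb together, 83.3% of all GR peaks lay within 10 kb of C/EBPβ. For scale, 47.7% of the C/EBPβ 6 h peaks themselves lay under 10 kb from the next C/EBPβ peak. Peaks within a list do not overlap, so this share stands beside the 669 of 1339 unpaired GR peaks. It is no scale for the 83.3%, which includes overlapping peaks. A C/EBPβ peak of 0 h overlapped 15 of the unpaired GR peaks (1.12%) and 1051 of all 4007 (26.2%), a contrast that the lack of a 6 h partner largely sets, since most 0 h peaks overlap a 6 h peak.

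Paired GR peaks sat in denser C/EBPβ surroundings. Leaving their partners aside, the nearest further C/EBPβ peak was a median of 6.35 kb (5.90 to 7.10 kb) away. A further C/EBPβ peak lay under 10 kb from 59.7% of paired GR peaks, and the difference of unpaired from paired peaks was -9.71 points (-13.0 to -6.44). C/EBPβ peaks of 0 h that were not listed again at 6 h lay farther out than unpaired GR peaks, with a median gap of 22.2 kb and 31.6% under 10 kb, a difference of 18.4 points (15.2 to 21.5) in favour of GR. The spacing of the C/EBPβ list itself was similar to the gap of unpaired GR, with a median of 11.0 kb (10.7 to 11.4 kb) to the next C/EBPβ peak.

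**Figure D4:**
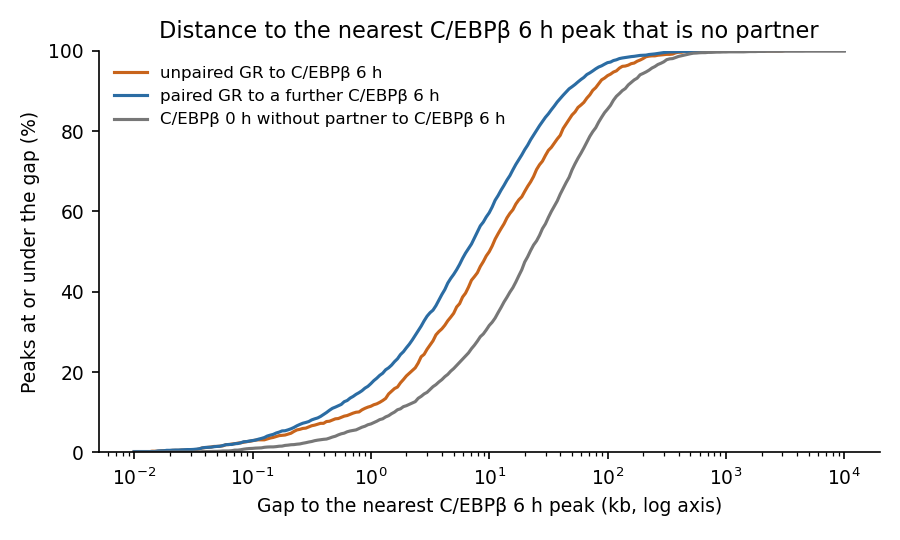
Cumulative percentage of peaks (y axis) by the gap to the nearest C/EBPβ 6 h peak that is not a partner (x axis, kb, log axis), for unpaired GR, for paired GR and for C/EBPβ 0 h peaks without a 6 h partner. At 10 kb the paired GR curve stands at 59.7% and the C/EBPβ 0 h curve at 31.6%, with unpaired GR (669 of 1339) between them.

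Height did not go with distance among unpaired GR peaks within counting error. Those above their median height lay within 10 kb in 2.47 points more cases than the others (-2.89 to 7.81). Median height was 16 under 1 kb, 16 from 1 to 10 kb, 16 from 10 to 100 kb and 15 beyond. Median width declined with the gap, from 314.5 bp under 1 kb through 307 and 284 bp to 269 bp at 100 kb or more. An unpaired GR peak lay under 10 kb from a paired one in 169 cases (12.6%). Over all 1339 unpaired GR peaks, the nearest other GR peak was a median of 62.4 kb away.

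The highest unpaired GR peak (chromosome 5, 118685731 to 118686141) reached 86 reads and 28.36-fold enrichment, and the nearest C/EBPβ peak was 16.4 kb away. The next (chromosome 2, 27153598 to 27153977) reached 77 reads, with a gap of 60.6 kb. Another (chromosome 13, 103745986 to 103746337) reached 71 reads and missed a C/EBPβ peak of height 20 by 183 bp. The last were at 69 reads (chromosome 15, 78958679 to 78959132; gap 152 kb) and at 67 reads (chromosome 11, 59777054 to 59777509; gap 8.78 kb). The 3 GR peaks farthest from C/EBPβ were weak, with heights of 13, 12 and 14, and 2 of them lay on chromosome X, the farthest 3072 kb from the nearest C/EBPβ peak. At the border of the pairing rule, the 3 pairs with the shortest overlap shared 1, 3 and 5 bp with GR heights of 33, 17 and 40, and the 3 closest misses had gaps of 4, 9 and 14 bp with GR heights of 13, 13 and 12.

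Sharing varied by chromosome. Chromosome 6 held 468 GR peaks, 11.7% of the GR list, and 9.73% of the C/EBPβ list at 6 h, a difference of 1.95 points (0.905 to 3.05). Its GR peaks were paired in 77.4% of cases (73.3 to 80.9%), 12.2 points (7.89 to 16.1) above the rest of the genome. This was the highest share of the 20 chromosomes, and the intervals do not allow for picking out the highest. Chromosome 15 followed with 76.1% (70.8 to 80.7%). The lowest shares were 48.8% (38.1 to 59.5%) on chromosome X, with 80 GR peaks, and 51.5% (43.9 to 59.1%) on chromosome 7. Median GR width was 400.5 bp on chromosome 6 and 296.5 bp on chromosome X, and 308 bp on chromosome 7. Across the 20 chromosomes, the share of GR peaks paired had a rank correlation of 0.65 with the number of C/EBPβ 6 h peaks, given as a description of 1 library a side. The part of width or of the number of C/EBPβ peaks in these differences was not tested.

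At shared sites, nearness to an H3K9ac 24 h region went with GR height. Each paired GR peak was taken with its highest partner, and a listed H3K9ac region counted as near when the gap was under 1 kb. Of all GR peaks, 8.61% lay near a 24 h region, 4.27% near a 0 h region and 4.44% near a 240 h region. Among paired GR peaks, 181 of 1376 above their list's median height (13.2%) and 81 of 1292 not above it (6.27%) were near a 24 h region, a difference of 6.88 points (4.66 to 9.12). For C/EBPβ height the difference was 1.93 points (-0.768 to 4.28), and it was 4.90 points (0.868 to 8.39) where GR was above its median and -0.839 (-4.60 to 2.07) where it was not. With both heights above their medians 14.4% (12.4 to 16.7%) were near a 24 h region, with GR alone above 9.52% (6.90 to 13.0%), with C/EBPβ alone above 6.08% (4.76 to 7.74%) and with neither 6.92% (4.52 to 10.4%). The difference by GR height was 8.34 points (5.73 to 11.0) where C/EBPβ was above its median and 2.60 (-1.79 to 6.84) where it was not. Whether these differences differ from each other was not tested. The difference by GR height was 7.51 points (4.21 to 11.1) at pre-bound and 5.998 points (2.96 to 8.96) at new C/EBPβ sites. Of all GR peaks, those wider than the median lay near a 24 h region in 11.3% of cases and the others in 5.98%. The difference by GR height at shared sites was 7.60 points (4.48 to 10.6) among the wider GR peaks and 3.96 points (0.866 to 7.38) among the narrower.

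The 0 h list showed the opposite sign. Each list kept regions with more signal at its time than at another, so the 0 h and 24 h differences are not independent results. How far the choice of regions sets the opposite sign was not tested. Paired GR peaks above their median height lay near a 0 h region in 3.42% of cases and the others in 6.19%, a difference of -2.78 points (-4.45 to -1.16). At pre-bound sites the difference was -4.76 points (-7.798 to -1.67), with 21 of 468 against 54 of 584, and at new C/EBPβ sites -0.809 points (-2.69 to 0.929). It was -3.74 points (-5.70 to -1.85) where C/EBPβ was above its median and 0.395 points (-2.92 to 3.496) where C/EBPβ was not. In the 240 h list the difference by GR height was -1.45 points (-3.17 to 0.232) over all shared sites. It was -3.16 points (-5.42 to -1.09) at new and 1.53 points (-1.36 to 4.60) at pre-bound C/EBPβ sites. Where C/EBPβ was above its median it was -2.36 points (-4.41 to -0.356), and where it was not, 1.71 points (-1.39 to 4.71). By C/EBPβ height the 240 h difference was 1.87 points (-0.106 to 3.498) over all shared sites, and 4.01 points (1.06 to 6.21) where GR was not above its median. Midpoint offset made no difference beyond counting error at any of the 3 times: pairs within 50 bp differed from the other pairs by -1.32 points (-3.59 to 0.943) in the 24 h list, by 0.311 (-1.32 to 1.95) in the 0 h list and by 1.37 (-0.316 to 3.07) in the 240 h list. Among unpaired GR peaks, those above the median height exceeded the others at 24 h by 3.40 points (0.796 to 6.13).

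**Figure D5:**
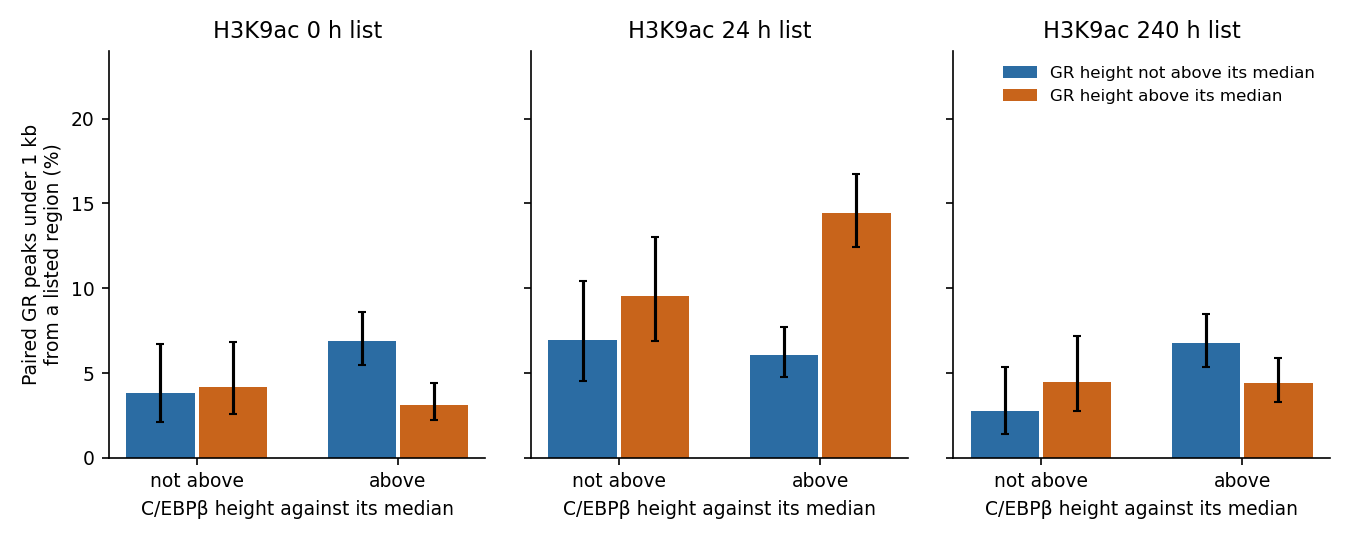
Percentage of paired GR peaks with a listed H3K9ac region under 1 kb away (y axis) by C/EBPβ height (x axis) and GR height (colour), each above or not above its list's median, for the 0, 24 and 240 h lists, with 95% Wilson intervals of counting error. The bar for both heights above their medians is 14.4% in the 24 h list and 3.14% in the 0 h list. The lists were chosen by differences in signal between times, so their bars are not independent.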

How the data were processed

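Peak lists from single libraries were compared by position. Per the labels' protocols, ELAND aligned reads of 36 bp to mm8, up to 2 mismatches being tolerated, and of the reads with a single position 1 per start was kept, which caps high peaks. The sources used here name neither the peak caller and its threshold nor any use of input. The deposited fold enrichment (a ratio) and peak height (a read signal) are the authors' values, used within a list. The deposited H3K9ac lists give an average read count, a signal, and a false discovery rate (a p-value scale) from the authors, of which only positions were used. The lists give no read totals, so depth is unknown, and absence from a list does not show absence of binding.

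With Python 3.11.15, numpy 2.4.6, pandas 2.3.3, scipy 1.17.1 and matplotlib 3.10.9, intervals sharing at least 1 bp were paired. Classes are 4 equal parts of a list by rank. Shares have 95% Wilson intervals, differences of shares 95% Newcombe intervals and medians 95% order statistic intervals. Pairing, offset and distance code was tested on simulated lists. No sequence or gene is given because no mm8 genome or annotation was used here. The comparisons, lists and named sites (the extremes of height, overlap and gap) were chosen with earlier results of these data known. The splits by presence at 0 h, by H3K9ac, by chromosome and by width of C/EBPβ were added after these lists were seen.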

Additional observations from a re-analysis of the deposited data

How the results depend on the processing

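Among the other settings chosen first, 25 shares, medians and rank correlations stayed within the 95% intervals of the main setting and 9 moved. Of the differences, 10 kept their call and 2 reversed. Among the settings added later, 30 differences kept their call and 1 lost it, and 1 rank correlation stayed and 2 moved. For rank correlations this was a Fisher interval that treats pairs as independent, -0.0778 to -0.00294 in the main setting. It says nothing about the spread between cultures. Requiring midpoints within 100 bp gave 51.3% of GR and 9.90% of C/EBPβ peaks paired. With the peaks of both lists above their median height, 50.95% and 10.6% were paired, the rank correlation of heights was -0.0798 and GR was wider in 44.2% of pairs. That setting leaves fewer peaks to meet. With single partners on both sides the median offset was 48.5 bp and GR was wider in 38.1%. The rank correlation of heights was 0.14 with C/EBPβ peaks listed at 0 h and 0.0218 with new ones. To the stronger C/EBPβ peaks alone, the median gap of unpaired GR peaks was 26511 bp. The difference between stronger and weaker unpaired GR peaks reversed to -2.17 points by fold enrichment and to -0.23 within 1 kb, each with an interval that includes 0. The difference near H3K9ac 0 h regions by GR height was -0.809 points (-2.69 to 0.929) at new C/EBPβ sites. The excess of the widest C/EBPβ peaks was 10.1 points among peaks not above their median height and 36.3 among those above it. No paired analysis was possible because no group has more than 1 library. The unknown depth limits every statement about a missing partner.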
